A study of Mus musculus with 20 samples.

Results

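The genes described here are 10 genes of neutrophils and of the chemokine axis that draws them into tissue, measured in mouse ear pinnae. They were chosen by name, with earlier results of these data known, and all 10 are among the 16669 genes of the expression table. S100a8 and S100a9 encode the subunits of calprotectin, Cxcr2 and Csf3r encode receptors, Cxcl1, Cxcl2, Cxcl3 and Cxcl5 encode ligands of CXCR2, and Clec4d and Trem1 encode innate immune receptors of myeloid cells. RNA was sequenced from ears injected intradermally with 10 µl of IL-4, IL-13 or IL-31, each at 0.1 µg/µl in PBS, or with PBS alone, and each of the 4 groups had 5 libraries. Strain, age, sex and the time between injection and harvest were not given in the sources used, nor was it stated that libraries of a group came from separate animals, so the p-values rest only on variation among these libraries, which may be technical.

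Neutrophils are short-lived leukocytes that leave the blood at sites of injury or infection. They follow chemokines of the CXC class, which stromal cells, epithelial cells, macrophages and neutrophils themselves release, and they sense them through CXCR2. G-CSF, acting through the receptor encoded by Csf3r, drives their production in bone marrow and their release. Calprotectin fills much of their cytosol and is also made by monocytes and by keratinocytes under stress, and resting skin holds few neutrophils.

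Ear tissue markers were present in every library: Krt14, a basal keratinocyte keratin, was between 12.88 and 14.18 log2 CPM (CPM, read counts scaled to library size), Col1a1, a fibroblast collagen, between 9.31 and 11.46, and the cartilage gene Acan between 6.09 and 7.52. Effective library sizes ran from 6.12 to 23.73 M reads (M, mega), so 3 reads equalled 0.126 to 0.490 CPM. PBS libraries 1, 2 and 3 stood apart in 14 genes of the epidermal barrier, which summed to between 22640 and 32110 CPM in those 3 libraries and to at least 49750 CPM in each of the other 17 libraries. Comparisons with PBS are therefore also given without them where the call or count differs. Of the neutrophil markers, Cxcr2, Csf3r, Cd177, Retnlg, Mmp8, Mmp9 and Ltf were measured, and Ly6g, Camp, Ngp, Mpo and Elane were not analysed here.

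Of the 10 members, 8 were higher in each of the same 9 libraries than in any of the other 11, and every group held libraries of both kinds. Cxcl1 and Cxcl5 did not follow this division. S100a9 showed the division most plainly among the calprotectin genes. Its level was 0.69, 2.48, 1.21, 6.49 and 1.19 log2 CPM in IL-4 libraries 1 to 5, 7.67, 0.83, 6.98, 0.87 and 1.91 in IL-13 libraries, and 4.97, 0.53, 7.26, 5.62 and 0.42 in IL-31 libraries. In PBS libraries 1 to 5 it was 7.56, 2.18, 8.48, 1.57 and 7.78. No library lay between 2.48, in IL-4 library 2, and 4.97, in IL-31 library 1, and this gap of 2.50 on the log2 scale was the widest in the ordered values. Above it were 1 IL-4 library (number 4), 2 IL-13 libraries (1 and 3), 3 IL-31 libraries (1, 3 and 4) and 3 PBS libraries (1, 3 and 5), and below it the other 11. These 9 and 11 libraries are named from the values and are not groups of the study, so no test was made between them. The libraries above the gap had effective sizes of 9.11 to 23.73 M reads and those below it 6.12 to 15.49 M.

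S100a8, the partner subunit of S100a9, divided the same libraries. It ran from 4.05 to 7.56 log2 CPM in the 9 upper libraries and from -1.27 to 1.91 in the other 11. Within a library, S100a9 exceeded S100a8 by 0.80 to 1.39 on the log2 scale in the 9 upper libraries, and the difference was between -0.70 and 1.81 in the lower 11. The calprotectin subunits thus kept a narrow ratio in the libraries where they were abundant. Both genes lie on chromosome 3 of GRCm38, S100a8 at positions 90668978 to 90670035 on the plus strand and S100a9 at 90692632 to 90695721 on the minus strand, with 22596 bases between them. Scaled per kilobase of exon, S100a9 stood at 685 CPM per kb in PBS library 3, the library with its highest level, and S100a8 at 272 CPM per kb.

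**Figure D1:**
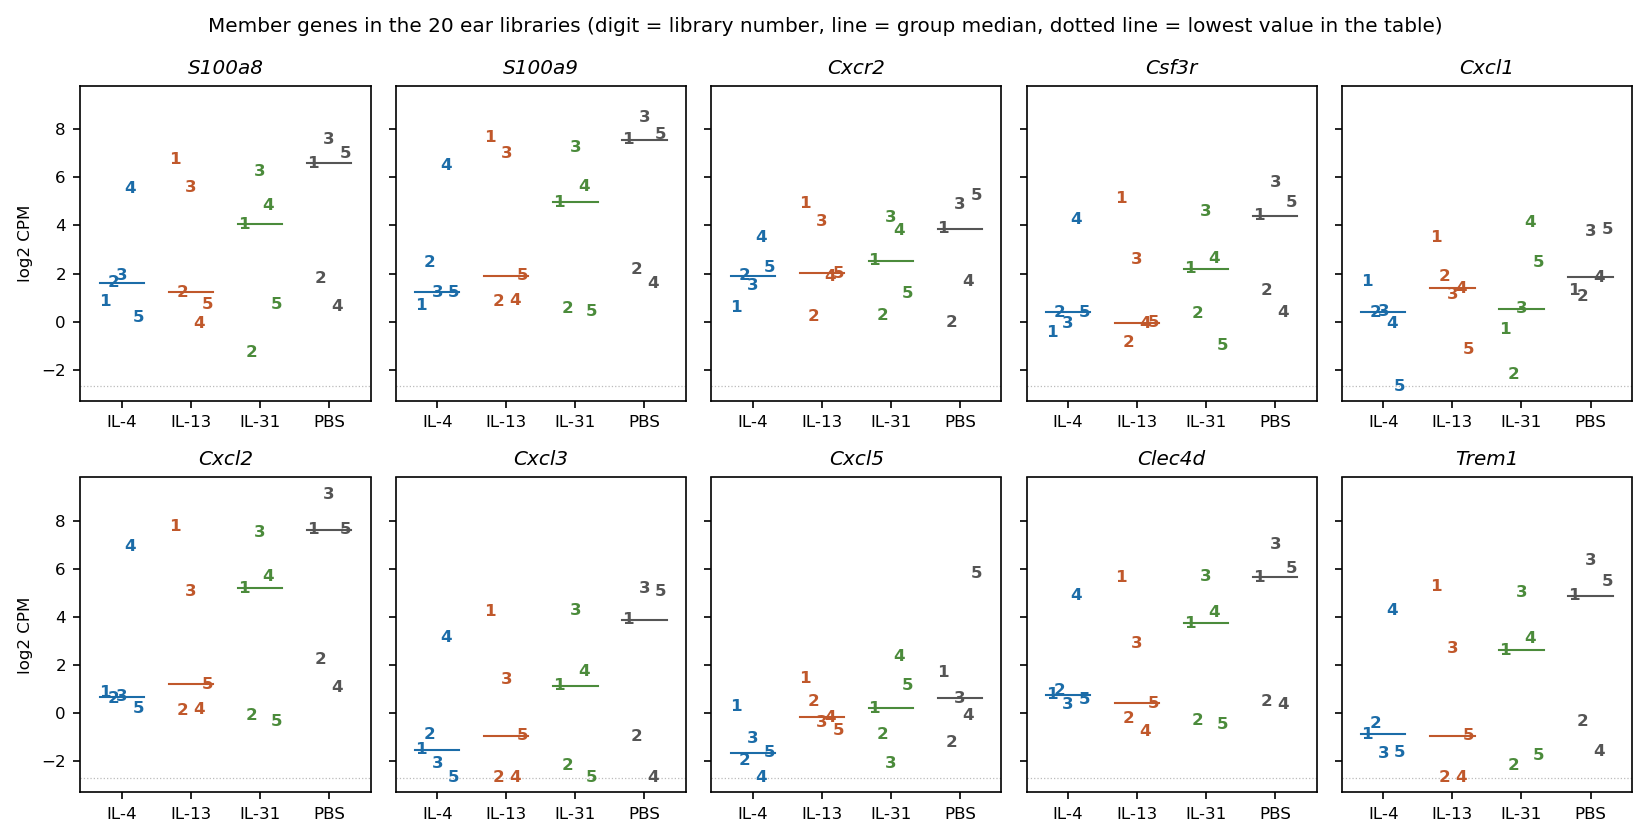
Level of each member (log2 CPM) in each of the 20 libraries, by group, with 1 point per library. In S100a9 the points lie at or below 2.48 or at or above 4.97, and each group has points on both sides. Cxcl1 has no empty band as wide, and the widest in Cxcl5 sets only PBS library 5, at 5.80, apart.

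Csf3r, the receptor for G-CSF, was at -0.44, 0.40, -0.06, 4.25 and 0.38 log2 CPM in IL-4 libraries 1 to 5, at 5.10, -0.88, 2.59, -0.07 and -0.05 in IL-13 libraries and at 2.21, 0.33, 4.57, 2.64 and -0.99 in IL-31 libraries. In PBS libraries 1 to 5 it was at 4.39, 1.31, 5.80, 0.37 and 4.94. The same 9 libraries lay above the same 11, by 0.89 on the log2 scale, although the widest gap in Csf3r fell elsewhere and left 6 libraries above it. Cxcr2, the chemokine receptor itself, ran from 2.54 to 5.24 log2 CPM in the 9 and from -0.06 to 2.24 in the 11, a separation of 0.30, and its whole range of 5.30 was the smallest of the 10 members. The widest gap in Cxcr2, 0.95, lay just above IL-31 library 1, at 2.54, and left 8 libraries above it. Csf3r lies on chromosome 4 at 126024550 to 126044440 and Cxcr2 on chromosome 1 at 74153989 to 74161246.

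Trem1, a receptor that amplifies inflammatory signals in neutrophils and monocytes, had the widest separation of the 10 members. It was at -0.88, -0.44, -1.66, 4.27 and -1.65 log2 CPM in IL-4 libraries 1 to 5, at 5.26, -2.68, 2.69, -2.68 and -0.93 in IL-13 libraries and at 2.61, -2.18, 5.03, 3.12 and -1.76 in IL-31 libraries. In PBS libraries 1 to 5 it was at 4.88, -0.35, 6.34, -1.60 and 5.49. The lowest of the 9 upper libraries exceeded the highest of the 11 lower ones by 2.96 on the log2 scale. The value -2.68 is the lowest in the table and is the floor that all libraries share. Clec4d, a C-type lectin receptor of myeloid cells that pairs with an adaptor carrying an activation motif, ran from 2.89 to 6.996 log2 CPM in the 9 and from -0.76 to 0.92 in the 11. Trem1 lies on chromosome 17 at 48232768 to 48246924, where an antisense transcript overlaps it, and whether the counting used strand was not stated. Clec4d lies on chromosome 6 at 123262111 to 123275265.

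The 4 ligand genes lie within 146579 bases of chromosome 5, in the order Cxcl5 (90759360 to 90761624), Cxcl3 (90786103 to 90789600), Cxcl1 (90891241 to 90893115) and Cxcl2 (90903871 to 90905938), all on the plus strand. Promoters of 3 of them are shown because neighbouring ligand genes divided the libraries differently. Each is 300 bases of RefSeq sequence on GRCm38.p6, from 250 bases before the transcription start to 50 after it, plus strand, 5′ to 3′. Capitals mark matches on either strand to a 10-base pattern for the NF-κB family of transcription factors, which reads GGG, any 2 bases, TT, any base and CC.
Cxcl1, chr5:90890995-90891294: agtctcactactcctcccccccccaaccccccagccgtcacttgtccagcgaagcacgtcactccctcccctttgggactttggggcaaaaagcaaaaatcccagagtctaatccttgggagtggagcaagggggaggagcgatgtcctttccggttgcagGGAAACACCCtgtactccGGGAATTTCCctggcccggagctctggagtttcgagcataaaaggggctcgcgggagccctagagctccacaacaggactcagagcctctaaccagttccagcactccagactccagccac
Cxcl2, chr5:90903649-90903948: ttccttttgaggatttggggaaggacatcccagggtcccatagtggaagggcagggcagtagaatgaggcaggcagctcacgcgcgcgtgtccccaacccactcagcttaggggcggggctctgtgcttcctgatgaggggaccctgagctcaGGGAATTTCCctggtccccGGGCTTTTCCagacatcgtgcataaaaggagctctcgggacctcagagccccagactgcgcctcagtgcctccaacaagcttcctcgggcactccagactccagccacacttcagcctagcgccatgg
Cxcl3, chr5:90785851-90786150: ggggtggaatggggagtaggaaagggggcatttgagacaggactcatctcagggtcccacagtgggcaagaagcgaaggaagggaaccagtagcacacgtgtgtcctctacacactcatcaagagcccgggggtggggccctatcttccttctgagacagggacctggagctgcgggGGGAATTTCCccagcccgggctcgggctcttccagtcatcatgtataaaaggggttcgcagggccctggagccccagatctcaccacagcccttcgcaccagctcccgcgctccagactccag
Each of the 3 holds the letters GGGAATTTCC, at 71 bases before the start in Cxcl1 (position -71), at -97 in Cxcl2 and at -73 in Cxcl3. Cxcl1 has a further match at -89 on the minus strand and Cxcl2 one at -78. The NF-κB pattern, searched on both strands like the others, was in 3 of the 9 member promoters that matched the RefSeq table and in 1575 of all 32851 promoters of the same length, which is 4.79%. The TATA-box letters TATAAA were in 3 of the 9, 30 bases before the start in Cxcl3 and S100a8 (position -30) and at the RefSeq start itself in S100a9 (position 1), and in 13.6% of all promoters. The pattern TTGCNNAA for the C/EBP family was in 1 of the 9, S100a9, and in 10.8% of all promoters. These matches describe letters in the window and not bound sites.

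Cxcl2, a ligand that macrophages and neutrophils make in quantity, had the widest range of the 10 members, 9.46 on the log2 scale. It was at 0.85, 0.59, 0.67, 6.93 and 0.18 log2 CPM in IL-4 libraries 1 to 5, at 7.75, 0.12, 5.08, 0.14 and 1.19 in IL-13 libraries and at 5.19, -0.10, 7.50, 5.70 and -0.35 in IL-31 libraries. In PBS libraries 1 to 5 it was at 7.64, 2.21, 9.11, 1.06 and 7.62. The 9 upper libraries were those of S100a9, and the gap between the sets was 2.86. Cxcl3, a close paralogue of Cxcl2, followed it, with 1.14 to 5.18 log2 CPM in the 9 and -2.68 to -0.88 in the 11. In CPM, Cxcl2 reached 553 in PBS library 3, the highest value of any member in any library. Per kilobase of exon, Cxcl2 stood at 268 CPM per kb there, against 10.3 CPM per kb for Cxcl3 and 7.15 CPM per kb for Cxcl1. The annotated exons of these genes together span each whole gene, with 2068 bases for Cxcl2, 3498 for Cxcl3 and 1875 for Cxcl1. Their levels per kilobase are therefore scaled by gene length, and the differences between them depend on that annotation. Reads shared between these similar ligand genes may have been split or dropped in the counting, a step that was not described.

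The remaining ligands, Cxcl1 and Cxcl5, overlapped between the 9 and the 11 libraries. Cxcl1, which fibroblasts, endothelium and keratinocytes make, was at 1.66, 0.40, 0.44, -0.08 and -2.68 log2 CPM in IL-4 libraries 1 to 5, at 3.52, 1.86, 1.11, 1.39 and -1.15 in IL-13 libraries and at -0.34, -2.18, 0.53, 4.11 and 2.47 in IL-31 libraries. In PBS libraries 1 to 5 it was at 1.30, 1.03, 3.76, 1.84 and 3.85. IL-4 library 4 and IL-31 library 3, both high in Cxcl2, were below IL-31 library 5 and PBS library 4, both low in Cxcl2. Cxcl5, a ligand made by epithelial cells and platelets, was at 0.29, -1.99, -1.07, -2.68 and -1.65 log2 CPM in IL-4 libraries 1 to 5, at 1.45, 0.48, -0.37, -0.18 and -0.74 in IL-13 libraries and at 0.20, -0.88, -2.11, 2.35 and 1.17 in IL-31 libraries. In PBS libraries 1 to 5 it was at 1.69, -1.24, 0.63, -0.08 and 5.80. One library, PBS 5, stood above all others in Cxcl5, by 3.46 on the log2 scale. IL-4 library 4 was at the lowest value of the table for Cxcl5 while it was the highest IL-4 library for Cxcl2.

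**Figure D2:**
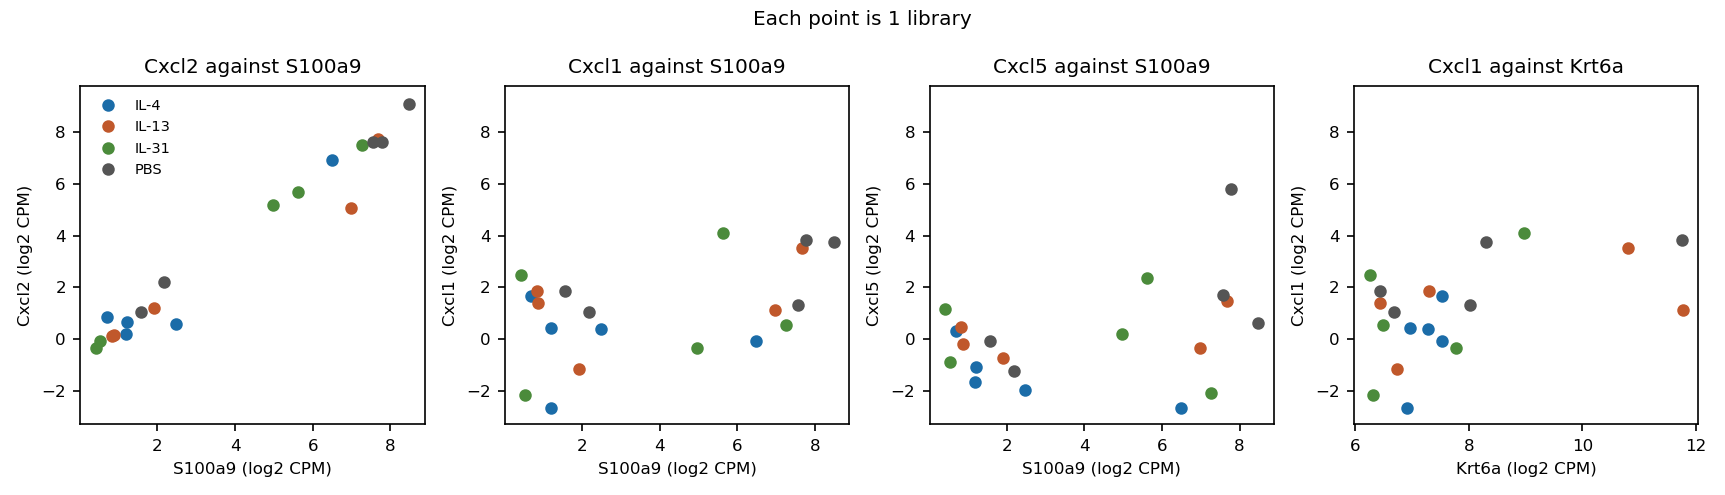
Levels (log2 CPM) of Cxcl2, Cxcl1 and Cxcl5 set against S100a9, and of Cxcl1 set against Krt6a, with 1 point per library coloured by group. Libraries with Cxcl2 above 5 are those high in S100a9, and they have Cxcl1 values from -0.34 to 4.11.

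Within a library, Cxcl2 exceeded Cxcl3 by 2.55 to 4.04 on the log2 scale in the 9 upper libraries and by 1.48 to 3.74 in the lower 11. The difference Cxcl2 minus Cxcl1 ran from 1.60 to 7.01 in the 9 and from -2.82 to 2.87 in the 11. The ligand mixture therefore differed between libraries of the upper 9, as between IL-4 library 4 and IL-31 library 4. In these libraries Cxcl2 was at 6.93 and 5.70 while Cxcl1 was at -0.08 and 4.11. Their neutrophil gene levels differed too, with S100a9 at 6.49 and 5.62 and Csf3r at 4.25 and 2.64. In the genome-wide table, 71 of the 16461 tested genes, or 0.431%, had all 9 libraries above all 11, and 0 had all 9 below all 11. The 8 members that separated them are among the 71, and S100a9 among the 8 did so by construction. PBS library 3 was the highest of the 20 in 7 members, PBS library 5 in 2 and IL-31 library 4 in 1.

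**Figure D3:**
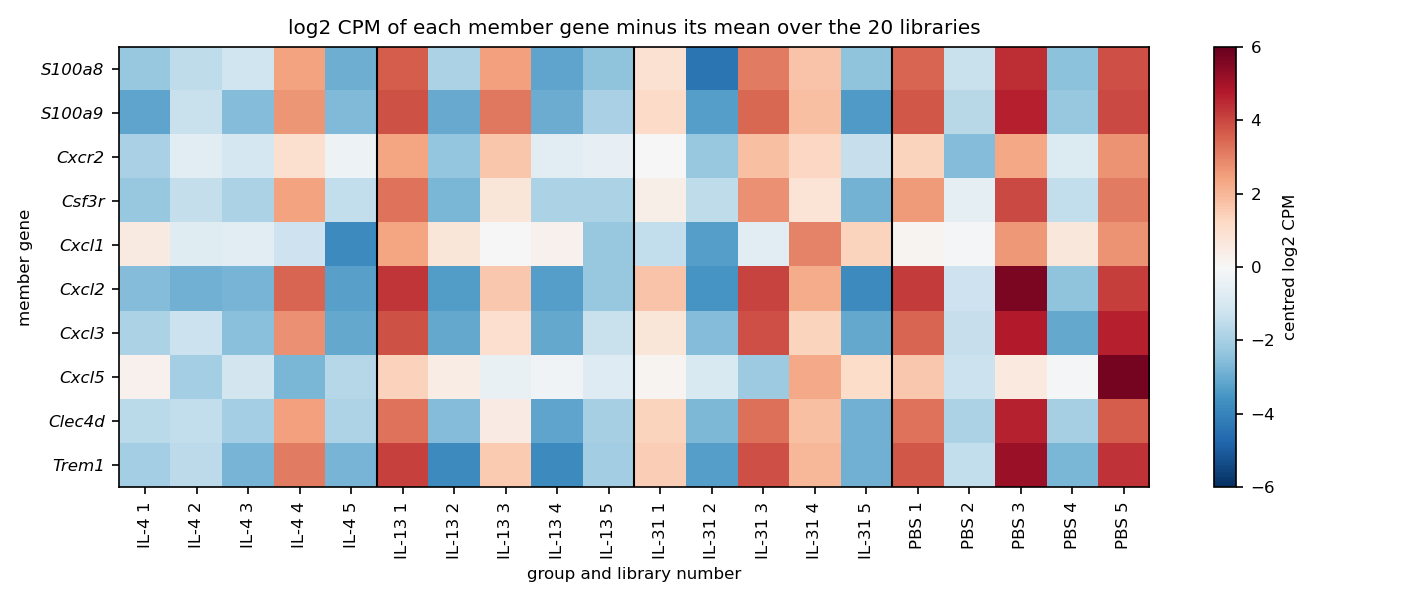
Level of the 10 members in the 20 libraries, as log2 CPM minus each gene's mean over the libraries, on a colour scale from -6 to 6. The 9 libraries high in S100a9 show 8 members above their means together, and Cxcl1 and Cxcl5 break from that pattern in several of them.

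Summed over the 10 members, the linear level ranged from 11.4 to 344.7 CPM in IL-4 libraries, from 11.3 to 710.4 in IL-13 libraries, from 5.68 to 557 in IL-31 libraries and from 15.9 to 1443 in PBS libraries. It was 116.7 CPM or more in each of the 9 upper libraries and 19.7 CPM or less in each of the 11. In whole-tissue RNA, fewer neutrophils and less of these transcripts per cell cannot be told apart. The spread inside groups was larger in the members than in most genes. Since the members were chosen with earlier results of these data known, the ranks that follow describe them and are not a test. The SD within groups was 3.38 on the log2 scale for Cxcl2, the third highest of 16461 genes, 3.24 for Trem1, 3.08 for S100a9, 2.99 for Cxcl3 and 2.92 for S100a8, which ranked 10. Its median over the 10 members was 2.80, and over all tested genes 0.27. Differences between the group means took up 14.0% of the sum of squares in the median member and 24.7% in the median of all genes.

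With IL-4, all 10 members had lower means than with PBS, and none passed the test in limma. The background was 2938 of 16461 genes called, 17.8%, and the count of members was 0 of 10. At an unadjusted p under 0.05 the count was 2 of 10, by limma and by the exact permutation test alike, where all tested genes gave 5191 or 31.5% in limma. Log2 fold changes ran from -3.68 for Cxcl2 to -1.18 for Cxcr2, with a median of -2.74 beside -0.02 for all genes. S100a9 averaged 2.41 ± 2.38 log2 CPM with IL-4 and 5.52 ± 3.35 with PBS (SD, n = 5 each), and its log2 fold change of -3.10 ± 1.75 (SE) had a limma adjusted p of 0.239. The 95% interval of that change ran from -6.76 to 0.55. The 5 IL-4 and 5 PBS values overlapped in all 10 members, where 8.53% of all tested genes had no overlap. Since the members move together from library to library, 10 shared signs do not amount to 10 separate observations.

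The members nearest the threshold with IL-4 were the ligands that did not follow the division. Cxcl5 averaged -1.42 ± 1.12 log2 CPM with IL-4 and 1.36 ± 2.70 with PBS (SD, n = 5 each). Its log2 fold change was -2.78 ± 1.01 (SE; 95% interval -4.89 to -0.67), with a limma adjusted p of 0.0623 and a two-sided exact permutation p of 0.0397, where the smallest possible is 0.00794. The adjusted p passed 0.05 without IL-4 library 1 (0.0427), PBS library 2 (0.0336) or PBS library 4 (0.0432), and without PBS libraries 1, 2 and 3 together (0.0483). Without PBS library 5 the log2 fold change was -1.67, with an adjusted p of 0.135. Cxcl1 averaged -0.06 ± 1.60 log2 CPM with IL-4 and 2.35 ± 1.36 with PBS, a log2 fold change of -2.41 ± 1.04 (SE), with a limma adjusted p of 0.116 and an exact permutation p of 0.0238.

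With IL-13, all 10 members again had lower means than with PBS and none passed, against 3250 genes called in the background, 19.7%. At an unadjusted p under 0.05 the count was 0 of 10 in limma, where all tested genes gave 5547 or 33.7%, and 0 of 10 by the exact permutation test. Log2 fold changes ran from -2.67 for Cxcl2 to -0.48 for Cxcr2, with a median of -1.95, and limma adjusted p from 0.274 to 0.776. S100a9 averaged 3.65 ± 3.39 log2 CPM with IL-13 and 5.52 ± 3.35 with PBS (SD, n = 5 each), and the 95% interval of its log2 fold change ran from -5.52 to 1.79. The IL-13 and PBS values overlapped in all 10 members, where 7.52% of all tested genes had no overlap. Cxcr2 turned to a higher mean with IL-13, by 0.12, without IL-13 library 2 and by 0.05 without PBS library 5.

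With IL-31, all 10 members had lower means than with PBS and none passed, against 1050 genes called in the background, 6.38%, a count that was 0 without PBS library 2 or IL-31 library 3 or 5. At an unadjusted p under 0.05 the count was 0 of 10 in limma, where all tested genes gave 3921 or 23.8%, and 0 of 10 by the exact permutation test. Log2 fold changes ran from -1.94 for Cxcl2 to -0.70 for Cxcr2, with a median of -1.60, and limma adjusted p from 0.400 to 0.689. S100a9 averaged 3.76 ± 3.11 log2 CPM with IL-31 and 5.52 ± 3.35 with PBS (SD, n = 5 each), and the 95% interval of its log2 fold change ran from -5.41 to 1.90. The IL-31 and PBS values overlapped in all 10 members, where 4.36% of all tested genes had no overlap. The 3 comparisons with PBS share the same 5 PBS libraries, so their shared signs are not independent.

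**Figure D4:**
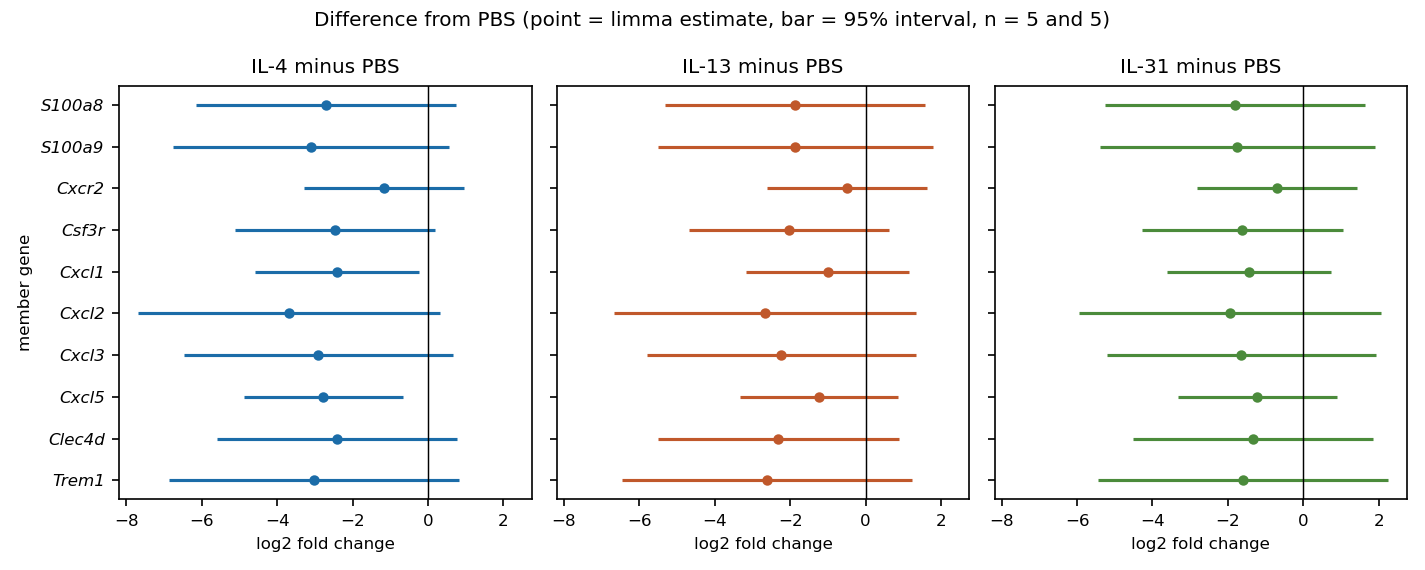
Log2 fold change of each member with each cytokine (IL-4, IL-13 or IL-31) against PBS, as points with 95% intervals from limma. All 30 points lie below 0, and the intervals reach 0 or beyond in all but Cxcl1 and Cxcl5 with IL-4.

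Between cytokines, none of the 10 members passed in limma, where the background was 0 of 16461 genes, 0.0%, in each of the 3 comparisons. At an unadjusted p under 0.05 limma gave 0 of 10 members in each, where all tested genes gave 664 (4.03%) for IL-4 against IL-13, 1743 (10.6%) for IL-4 against IL-31 and 1200 (7.29%) for IL-13 against IL-31. The exact permutation test gave 1 for IL-4 against IL-13, which was Cxcl5 at p = 0.0476, and 0 in the other 2 comparisons. All 10 members had lower means with IL-4 than with IL-13, by 0.10 to 1.55 on the log2 scale, and lower means than with IL-31, by 0.47 to 1.74. IL-13 against IL-31 had 8 members lower and 2 higher, between -1.03 and 0.43.

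The genes whose profile over the 20 libraries came nearest to the mean member profile were ranked by the root-mean-square difference of centred log2 CPM. Among the nearest with names were Fpr2 (0.52), Cd14 (0.52), Hdc (0.55), Stfa2l1 (0.59), Osm (0.64), Slc7a11 (0.65), Ccl3 (0.65), Ccr1 (0.66) and Slpi (0.70), where the median of all other genes was 2.32. A gene that did not vary would score 2.29, the root-mean-square of the mean member profile itself. Fpr2 is a receptor for formylated peptides, Ccr1 is a receptor for CCL3 and Hdc makes histamine. Cd14, a co-receptor for lipopolysaccharide on myeloid cells, was at 5.12 log2 CPM or more in each of the 9 libraries high in S100a9 and at 3.34 or less in each of the 11. Among the members themselves the difference was smallest for Clec4d, 0.55, and largest for Cxcl1, 1.96, and Cxcl5, 2.17, and S100a9 (0.86), Cxcr2 (1.02), Cxcl2 (1.13), Cxcl3 (0.78) and Trem1 (0.95) also lay farther from the mean profile than the genes named above.

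Other neutrophil granule and surface genes followed in part. Of 37 measured, 7 had all 9 libraries above all 11, among them Mmp9, Fpr2, Stfa1, Stfa2l1, Hdc and Slpi. Stfa2l1 did so narrowly and at low levels, with -0.62 log2 CPM in IL-31 library 1 and -0.73 in PBS library 2. The list's most abundant genes, Anxa1, S100a11 and Il1r2, overlapped between the sets, and other cell types express them too. The neutrophil markers Retnlg, Mmp8, Cd177 and Ltf overlapped as well, with highest levels of 4.03, 1.51, 1.3 and 3.16 log2 CPM. Retnlg was at -0.89 log2 CPM in IL-13 library 3, of the upper set, and at -0.59 in IL-13 library 4, of the lower set. In the rest of the upper set Retnlg was at 0.10 log2 CPM or more, above every library of the lower set. Mmp8 was at -0.79 in IL-31 library 1, of the upper set, and at -0.35 in IL-31 library 5, of the lower set. With IL-4 against PBS, 1 of 36 tested genes rose, 11 fell and 24 did not pass, with a median log2 fold change of -1.52. With IL-13 0 rose, 6 fell and 30 did not pass, and with IL-31 1 rose, 1 fell and 34 did not pass. Among all tested genes 17.8% were called with IL-4, 19.7% with IL-13 and 6.38% with IL-31, in either direction. Cyba, a subunit of the phagocyte oxidase that many cells express, fell in all 3 comparisons, by 1.05 ± 0.18 (SE; limma adjusted p 0.00133) with IL-4 and by 0.60 ± 0.18 (adjusted p 0.0467) with IL-31. Wfdc21 rose with IL-4, by 1.27 ± 0.41 (adjusted p 0.0368), and with IL-31, by 1.58 ± 0.41 (adjusted p 0.0297). Its low PBS values were those of PBS libraries 1, 2 and 3, at 3.43, 3.36 and 2.23 log2 CPM. PBS libraries 4 and 5 were at 5.40 and 5.09, beside 4.76 to 5.52 with IL-4 and 5.25 to 5.78 with IL-31. The counts of this list rest on few libraries. The IL-4 count of 12 became 7, 5, 6 and 4 without IL-4 libraries 1, 2, 3 and 5, and 6 and 5 without PBS libraries 1 and 3. It was 4 without PBS libraries 1, 2 and 3 together, 7 after quantile normalization, 6 with library weights and 5 in a fit to the 10 libraries of both groups alone. The IL-13 count of 6 became 11 and 9 without IL-13 library 1 and PBS library 4, and 1 without the 3 PBS libraries. The IL-31 count of 2 became 0 without any one of IL-31 libraries 3, 4 and 5 or PBS libraries 1, 2 and 3, 1 without IL-31 library 1 or 2, 4 without PBS library 4, and 0 without the 3 PBS libraries.

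Partners of TREM-1 and of C-type lectin receptors gave 0 that rose and 5 of 15 that fell with IL-4, among them the adaptor genes Tyrobp and Fcer1g, 4 that fell with IL-13 and 1, Card9, with IL-31. Median log2 fold changes were -1.35, -1.08 and -0.82, and 17.8%, 19.7% and 6.38% of all tested genes were called. Clec4e, Clec7a and Treml4 had all 9 libraries above all 11. Treml4 did so narrowly and near the floor, with -1.44 log2 CPM in IL-31 library 1, of the 9, and -1.73 in IL-13 library 4, of the 11. The IL-4 count became 8 without PBS library 4. Without PBS libraries 1, 2 and 3 the counts were 1 with IL-4, 1 with IL-13 and 0 with IL-31. The IL-31 call of Card9, a signalling adaptor, was -0.52 ± 0.14 (SE; limma adjusted p 0.0316), and the count was 0 without any one of IL-31 libraries 1, 2, 3 and 5 or PBS libraries 1, 2 and 3.

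Csf3, which encodes G-CSF itself, was the 1 of 8 genes of colony-stimulating factors and IL-17 signalling that had all 9 libraries above all 11. It was at 0.21 log2 CPM in IL-4 library 4 and at most -1.99 in the other IL-4 libraries, and at 0.66, -2.68, 2.30, -2.04 and 1.25 in PBS libraries 1 to 5. Its levels lay near the floor, with -1.19 in IL-31 library 1, the lowest of the 9, and 6 libraries at -2.68. In that list Csf1, Csf2ra and Csf2rb fell with IL-4, Csf2ra and Csf2rb also with IL-13, and Csf2ra with IL-31, and none rose. The shares called among all tested genes were 17.8%, 19.7% and 6.38%. The IL-4 count of 3 became 1 without any one of IL-4 libraries 1, 2, 3 and 5 or PBS libraries 3 and 5. The IL-13 count of 2 became 1 without IL-13 library 4 or PBS library 3, and the IL-31 count of 1 became 0 without any one of IL-31 libraries 1, 2, 3 and 5 or PBS libraries 1, 2 and 3. All 3 counts were 0 without PBS libraries 1, 2 and 3 together.

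Of the 26 early-response genes of NF-κB, 6 had all 9 above all 11: Nfkbid, Tnf, Il1b, Ptgs2, Ccl3 and Ccl4. Il1b, the gene of interleukin-1β, which induces CXC ligands in stromal cells, was at 0.85, 0.59, 0.35, 6.54 and -0.63 log2 CPM in IL-4 libraries 1 to 5 and at 7.43, 2.70, 8.80, -0.22 and 7.69 in PBS libraries. Il1b therefore showed the same high and low libraries as Cxcl2 within both groups. The list's most abundant genes spread far less, with Nfkbia between 6.55 and 7.87 in the 9 and between 6.50 and 7.03 in the 11. In this list 7 fell with IL-4, 4 with IL-13 and 0 with IL-31, where 17.8%, 19.7% and 6.38% of all genes were called. None rose, and the genes that fell, among them the adhesion genes Icam1 and Vcam1, were not the 6 that divided the libraries. The IL-4 count became 4 without IL-4 library 5, the IL-13 count 2 without any one of IL-13 libraries 2, 4 and 5, and the IL-31 count 1 without IL-31 library 4 or PBS library 5 and 2 without PBS library 4. Without PBS libraries 1, 2 and 3 the counts were 2 with IL-4, 0 with IL-13 and 0 with IL-31.

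None of 7 other CXC chemokine and receptor genes had all 9 above all 11, and among these Cxcl12, a ligand of CXCR4, fell with IL-4 by 0.69 ± 0.19 (SE; limma adjusted p 0.0192) and with IL-13 by 0.71 ± 0.19 (adjusted p 0.0147). Of all tested genes 17.8% were called with IL-4 and 19.7% with IL-13. The Cxcl12 list held 0 calls with IL-4 without PBS library 2 and 2 without PBS library 3. With IL-13 it held 0 without IL-13 library 3 or without PBS libraries 1, 2 and 3, and 2 without PBS library 3.

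Markers of other cell types were set beside the members, and their part in the result was not tested. Of 16 monocyte and macrophage markers, 0 had all 9 libraries above all 11, and their summed level was 363 to 496 CPM with IL-4, 369 to 587 with IL-13, 474 to 823 with IL-31 and 390 to 1395 with PBS. Of these markers 7 fell with IL-4, 6 with IL-13 and 0 with IL-31, where 17.8%, 19.7% and 6.38% of all tested genes were called. The IL-13 count became 2 without any one of IL-13 library 2 and PBS libraries 1 and 2, 1 without IL-13 library 3 or 4 and 3 without PBS library 5, and the IL-31 count 1 without PBS library 5. Of 13 stressed keratinocyte genes, 1, Ptgs2, had all 9 above all 11, and the summed level was 522 to 886 CPM with IL-4, 470.3 to 11700 with IL-13, 402 to 1826 with IL-31 and 352 to 11000 with PBS. Krt6a, a wound keratin, was highest in IL-13 library 3 (11.77 log2 CPM), PBS library 5 (11.75), IL-13 library 1 (10.81) and IL-31 library 4 (8.97), all high in S100a9. It was at 7.52 in IL-4 library 4 and 6.49 in IL-31 library 3, which were also high in S100a9. The mean centred level of the whole list was 0.75 in IL-4 library 4, the highest of the IL-4 libraries, and -0.39 in IL-31 library 3. It ran from -0.52 to 3.42 in the 9 libraries and from -1.69 to 0.15 in the 11. Krt16 was at 7.20 log2 CPM in IL-4 library 4, and at 3.58 to 6.72 in the other IL-4 libraries. Of 22 interferon-stimulated genes, 3 had all 9 above all 11, Ifit1 and Oas3 among them, and the summed level was 80.9 to 241.5 CPM with IL-4, 76.9 to 293 with IL-13, 118 to 327 with IL-31 and 132 to 699 with PBS. Of these genes 9 fell with IL-4, 6 with IL-13 and 0 with IL-31, with median log2 fold changes of -1.71, -1.48 and -0.94, and none rose. The IL-4 count became 4 without IL-4 library 1, 3 without any one of IL-4 libraries 2, 3 and 5 or PBS libraries 1, 3 and 5, and 3 after quantile normalization. The IL-13 count became 11 without IL-13 library 1 or PBS library 4, 3 without IL-13 library 5, 2 without any one of IL-13 library 2 and PBS libraries 1, 3 and 5 or after quantile normalization, and 1 without IL-13 library 4. The IL-31 count became 2 without PBS library 4 and 1 without PBS library 5. Without PBS libraries 1, 2 and 3 the counts were 1 with IL-4, 1 with IL-13 and 0 with IL-31. Red blood cell and platelet genes had 0 of 7 such genes, with summed levels of 93.7 to 434.5 CPM with IL-4, 112 to 302 with IL-13, 96.6 to 1856 with IL-31 and 204.5 to 939.8 with PBS. Skeletal muscle genes had 0 of 12, and their summed level was 503 to 4130 CPM with IL-4, 1151 to 4485 with IL-13, 2284 to 10100 with IL-31 and 7421 to 22010 with PBS. All 12 muscle genes fell with IL-4 and all 12 with IL-13, or 11 and 2 without PBS libraries 1, 2 and 3. The one eosinophil gene measured, Ear2, and 7 T and NK cell genes had 0, and of 9 mast cell genes 1, Hdc, had all 9 above all 11, while Mcpt4, Cma1 and Tpsb2, proteases that define mast cells, overlapped.

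**Figure D5:**
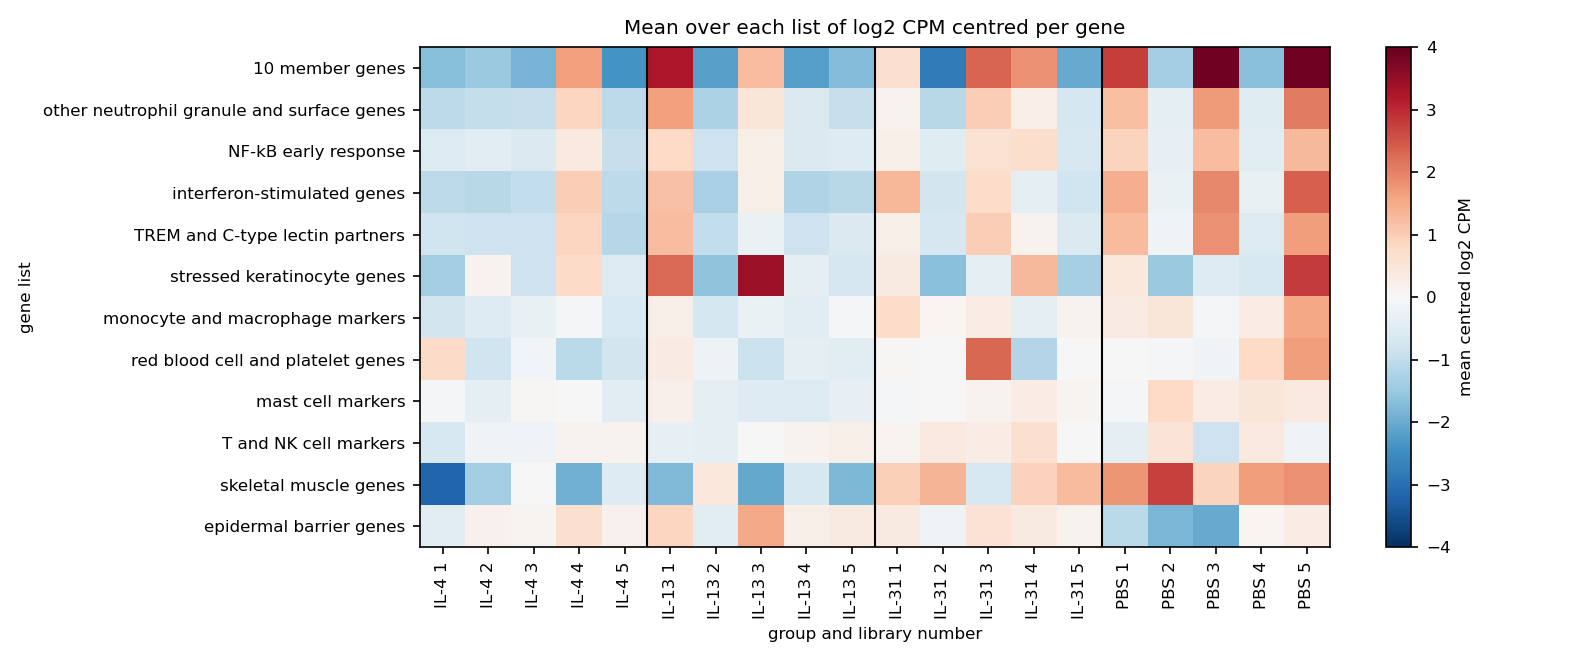
Mean centred log2 CPM of gene lists in each of the 20 libraries, by group, shown as colour. The member list runs from -2.79 to 3.89, and each group has libraries above 1 and below -1.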

How the data were processed

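Total RNA of 20 ear samples, 5 in each of 4 groups, was sequenced. The authors deposited 1 table of log2 CPM for 16669 genes under Ensembl identifiers. The submitters' processing notes list edgeR, without a version or a stated role, and build GRCm38. The aligner, the counter and its use of strand are not given in the sources used. The lowest value, -2.684, corresponds to an added 0.1556 CPM, and changes of low genes are understated. Between 76.8 and 86.4% of a library's low values came out as whole reads within 0.02, too few to recover counts or use a count test. Linear values of a library added up to 921691 to 1113112 CPM. GENCODE M21 gave symbols for 16644 identifiers and coordinates, and RefSeq tables for GRCm38.p6 gave promoters for 9 of the 10 members.

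Genes were tested where 5 or more of the 20 libraries reached a log2 CPM of 0, which kept 16461, all 10 members included, and removed 208. One limma model of the 4 groups (lmFit, contrasts, eBayes with trend) gave 6 comparisons, with two-sided Benjamini-Hochberg adjusted p over all tested genes called at 0.05. Exact permutation tests used all 252 assignments of 10 libraries. The members and 17 gene lists were chosen with earlier results of these data known. Named genes are the members, the 3 list genes of highest mean, list genes called where at most 3 were called, and the 10 nearest profiles, except for some that are not reported here; genes that separate the 9 from the 11 libraries, Cd14, Il1b, Csf3, Tyrobp and Fcer1g were named after their values were seen. Software was limma 3.58.1 in R 4.3.3, and scipy 1.17.1, pandas 2.3.3, numpy 2.4.6 and matplotlib 3.10.9 in python 3.11.15. Alternatives were other pseudocounts, filters, scaling, libraries in the fit, library weights, a replicate block, leaving out libraries and the exact test.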

Additional observations from a re-analysis of the deposited data

Results flagged for a closer look

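IL-4 library 4 stood apart from the other 4 IL-4 libraries in 4 members, with a gap to the nearest library above Dixon's 95% critical value. It was at 4.25 log2 CPM in Csf3r, with the nearest at 0.40. In Cxcl2 it was at 6.93, with the nearest at 0.85. Clec4d was at 4.87, with the nearest at 0.92, and Trem1 at 4.27, with the nearest at -0.44. Without this library the log2 fold changes of IL-4 against PBS were -3.3 for Csf3r, -4.95 for Cxcl2, -3.26 for Clec4d and -4.11 for Trem1, and none passed in limma (adjusted p between 0.091 and 0.178). Over the 40 gene and group sets examined, 4 met this rule where chance gives about 1 in 20, or 2, and these 4 genes move together, so they count as 1 pattern. The other groups held 2 or 3 high libraries, which this rule cannot single out.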

How the results depend on the processing

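Of 558 member fold changes under alternatives, 551 kept their direction and their side of the threshold, 4 became called and 3 changed sign. The 4 were Cxcl5 for IL-4 against PBS, with 1 member called without PBS libraries 1, 2 and 3 and 0 to 1 when each library was left out in turn. The 3 were Cxcr2 for IL-13 against PBS, at 0.09 with library weights and between -1.28 and 0.12 over the libraries left out, with 0.12 and 0.05 as the positive values. The exact permutation test without adjustment gave 2 members for IL-4 against PBS and 1 for IL-4 against IL-13. Among all tested genes, the fit to only the 2 groups compared gave 1269 calls for IL-4 against PBS, 1134 for IL-13 against PBS, 0 for IL-31 against PBS and 3 for IL-4 against IL-31. Without PBS libraries 1, 2 and 3 the calls against PBS were 1200 with IL-4, 385 with IL-13 and 0 with IL-31. Library weights gave 1667 for IL-31 against PBS, 692 for IL-4 against IL-31 and 535 for IL-13 against IL-31. Leaving out 1 library gave 1885 to 3553 calls for IL-4, 1995 to 4703 for IL-13 and 0 to 3029 for IL-31 against PBS, 0 to 304 for IL-4 against IL-31 and 0 to 297 for IL-13 against IL-31. The lowest came without PBS library 2 for IL-4 and IL-13, and for IL-31 without PBS library 2 or IL-31 library 3 or 5. The calls were 1956 without IL-4 library 5 and 2022 without IL-13 library 3. For IL-31 against PBS they were 498 and 405 without IL-31 libraries 1 and 4, and 26, 1, 1885 and 3029 without PBS libraries 1, 3, 4 and 5. The calls between cytokines came without IL-31 library 3. The cause was not tested. The stricter filter left 6 of the 10 members to test.

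Same-numbered libraries did not pair: 10 of 30 same-number pairs correlated above 0.1, against 44 of 120 pairs of different number, and 3 of 20 libraries correlated best with their own number. With the replicate block 0 members were called in each comparison, and all genes gave 2952 calls with IL-4, 3252 with IL-13 and 1247 with IL-31, each against PBS, and 2 for IL-4 against IL-31. At 5 libraries a group the SE of a member's log2 fold change was 1.01 to 1.92, and levels near -2.68 log2 CPM rest on a few reads at most.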

Other observations

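IL-13 library 4, low in S100a9 (0.87 log2 CPM), had the highest Ltf of the 20 libraries, at 3.16 log2 CPM, and the highest Ear2, at 3.42. Its Chil3 was at 4.11, below only PBS library 5 at 4.65. Ltf encodes lactoferrin of neutrophil granules, Chil3 a chitinase-like protein of macrophages and neutrophils, and Ear2 an eosinophil-associated ribonuclease. Ltf was at -1.41, -0.20, 1.00, -2.04 and 2.03 log2 CPM in PBS libraries 1 to 5, so this granule gene did not divide the libraries as S100a9 did. These genes were picked after their values were seen.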
